A study of Mus musculus with 9 samples.

Results

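A set of 10 genes of pericellular proteolysis was read in endothelial cells of the neonatal mouse retina: the secreted gelatinases Mmp2 and Mmp9, the membrane-type metalloproteinases Mmp14 and Mmp15, the membrane-anchored ADAM proteases Adam10, Adam15 and Adam17, and the inhibitors Timp1, Timp2 and Timp3. Members were all probe sets whose platform annotation gave exactly 1 gene symbol and whose symbol was among these 10. This rule found 19 of 36701 probe sets, for 9 of the 10 genes. Of these probe sets, 15 were on array design A, 1 was on B and 3 were on C. No probe set carried Mmp15 alone, and Mmp15 was not analysed here.

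The 9 arrays all carried RNA from GFP-positive cells sorted from retinas of homozygous Tie2-GFP transgenic mice at postnatal day 8. In this line the Tie2 promoter, which is active in endothelium and in some blood cells, drives the fluorescent protein. Every animal had been injected intraperitoneally from postnatal day 0 to 7 with APB5, an antibody that neutralises PDGFRb, the receptor used by pericytes. The series title describes these retinas as lacking pericyte coverage. Retinas were pooled and digested with papain, and the sorted RNA was amplified before hybridisation to Affymetrix MG-U74v2 arrays, with 3 replicates of each of the complementary designs A, B and C. There was no untreated group, so no effect of the antibody could be measured, and nothing in the labels ties replicates to separate pools of animals. Every spread and every p-value below therefore measures differences between arrays, which may be technical.

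Matrix metalloproteinases are zinc-dependent enzymes that are made as inactive precursors and cut collagens, laminins and other matrix proteins once their propeptide is removed. MMP14 sits in the plasma membrane and activates the MMP2 precursor in a complex that includes TIMP2. ADAM proteases are anchored in the membrane and release the outer parts of other membrane proteins, a process called shedding. The 4 TIMP proteins of mammals block matrix metalloproteinases by binding the active site, and TIMP3 differs from the others in being held tightly in the matrix. In growing vessels this system is known for remodelling the basement membrane and for setting how much of a receptor or adhesion protein stays at the cell surface.

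Values are deposited linear intensities. Each probe set was placed by percentile among all values of the same array, and 2 reference levels were used. The floor was the 40th percentile of each array, an intensity of 33.5 to 34.9 for design A, of 33.6 to 35.1 for B and of 25.3 to 25.4 for C. Distance from the floor was tested with limma on log2 intensities, with Benjamini-Hochberg adjustment over all probe sets of the design. The floor is a rank and not a detection limit, so lying above it does not show that a transcript was present. The second level was the 90th percentile over 42 probe sets of genes specific to unrelated tissues, called the tissue-foreign threshold, which on design A was an intensity of 64.8 to 69.5. On designs B and C only 3 and 12 probe sets of such genes were measured, so values against this level are given mainly for design A, and any that include B or C rest on those few probe sets. Probe sets differ in how well they hybridise, so an order of genes by percentile is not an order of transcript levels.

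The membrane-bound proteases Adam10, Adam15 and Mmp14 and the inhibitors Timp3 and Timp1 each had a probe set far above the floor. No probe set of the gelatinases Mmp2 and Mmp9 was called higher than it. The split was not clean, since Adam10, Adam15 and Timp1 also each had a probe set called lower. The membrane-anchored Adam17 lay only 0.37 log2 units above the floor. Timp2 had 1 probe set called higher, on design C, and 2 called lower. Mmp2 and Mmp9 each had 1 probe set that was called neither way. Of the 19 member probe sets, 7 were called higher than the floor, beside 54% of all probe sets of the 3 designs, and 8 were called lower, beside 34%. On design A the counts were 6 higher and 6 lower of 15, beside 54.2% and 34.1% of its 12422 probe sets. Above the floor on all 3 arrays lay 8 of 19, beside 56.5% over the 3 designs and 56.6% on design A. The tissue-foreign threshold was exceeded on all 3 arrays by 5 of the 15 on design A, beside 32% of all probe sets there (33.5% with the thin lists of designs B and C). The median member probe set stood at percentile 35.8, against 50.0 for all probe sets. Of the 9 genes, 7 had at least 1 probe set called higher, and 4 of them also had 1 or more called lower. The same shares over all genes of the 3 designs were not computed. More than 1 probe set was held by 6 of the 9, which gives more chances of either call, so these gene counts do not place the members high.

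**Figure D1:**
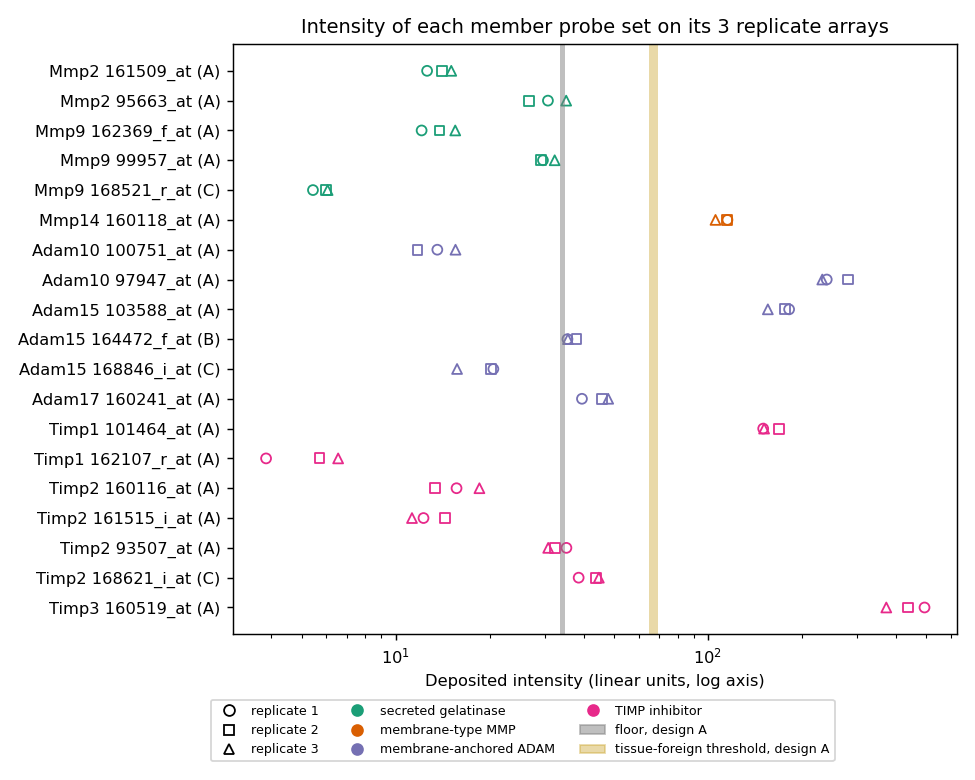
Deposited intensity (log axis) of each of the 19 probe sets on its 3 replicate arrays, coloured by the role of the gene, with the array design in parentheses; the bands span the floor and the tissue-foreign threshold over the 3 arrays of design A. The probe sets of Timp3, Mmp14 and 1 each of Adam10, Adam15 and Timp1 lie to the right of both bands. Those of Mmp2 and Mmp9 lie at or left of the floor, except replicate 3 of Mmp2 95663_at, at 35.2, just right of it.

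MMP2 and MMP9, the gelatinases, are secreted and cut denatured collagen and type IV collagen. Mmp2 read 30.8, 26.7 and 35.2 on probe set 95663_at. Only 1 of these 3 arrays exceeded its floor, and the difference from the floor, -0.16 ± 0.093 on the log2 scale (SE, n = 3), did not pass (limma, adjusted p = 0.15). Its other probe set, 161509_at, read 12.6, 14.1 and 15.1, below the floor on every array by 1.30 log2 units (limma difference -1.30 ± 0.077, adjusted p = 5.6e-06). The probe sets thus stood at percentiles 35.8 ± 5.0 and 10.9 ± 1.3 (SD, n = 3).

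Mmp9 read 29.7, 29.3 and 32.3 on probe set 99957_at, under the floor on all 3 arrays by a margin that did not pass (difference -0.17 ± 0.072 log2 units, SE, n = 3; limma, adjusted p = 0.061). Probe set 162369_f_at of design A read 12.1, 13.8 and 15.5, and 168521_r_at of design C read 5.44, 6.0 and 6.06. Both were called lower than the floor (limma, adjusted p = 8.8e-06 and 2.3e-06). The letter f in a probe set name marks probes that may be shared within a gene family, r marks a set picked with relaxed design rules and i marks one with too few unique probes. The 4 gelatinase probe sets of design A were below the tissue-foreign threshold on every array. A low reading is no proof that the transcript was missing.

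MMP14, also called MT1-MMP, cuts collagen at the cell surface and activates the MMP2 precursor. Its only probe set, 160118_at, read 115.5, 115.0 and 105.8. The 3 arrays lay close together, all above both reference levels. Mmp14 stood at percentile 77.3 ± 0.36 (SD, n = 3), 1.71 ± 0.076 log2 units above the floor, a 3.28-fold ratio (limma, adjusted p = 1.5e-06). Of the enzyme that activates, the inhibitor that takes part and the precursor that is activated, Mmp14 was thus called higher than the floor, Timp2 gave probe sets on both sides of it, and neither Mmp2 probe set was called higher.

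ADAM10 sheds Notch receptors, VE-cadherin and other membrane proteins. Adam10 gave opposite readings on 2 plain probe sets of design A. Probe set 97947_at read 240.3, 281.4 and 232.5, at percentile 89.7 ± 0.78, and lay 2.87 ± 0.086 log2 units above the floor, 7.33-fold (limma, adjusted p = 2.8e-07). Probe set 100751_at read 13.6, 11.8 and 15.6, at percentile 10.6 ± 2.4, and lay below the floor on every array (limma difference -1.34 ± 0.093, adjusted p = 1.3e-05). Replicates of each set lay close together and the sets did not overlap, so the disagreement is between probes and not between arrays.

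ADAM15 carries an integrin-binding disintegrin domain beside its protease domain. Adam15 read 182.1, 176.9 and 155.7 on probe set 103588_at of design A, above both reference levels on all arrays. That is percentile 85.1 ± 0.71 and 2.32 ± 0.084 log2 units above the floor (SE, n = 3), 5.01-fold (limma, adjusted p = 6.2e-07). On design B, 164472_f_at read 35.5, 38.0 and 35.6, just above the floor on all arrays but not by a margin that passed (limma difference 0.09 ± 0.076, adjusted p = 0.30). On design C, 168846_i_at read 20.6, 20.2 and 15.7 and was called lower (limma difference -0.44 ± 0.10, adjusted p = 0.0072). Only the plain probe set of Adam15 was high.

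ADAM17 is the enzyme that releases tumour necrosis factor and ligands of the EGF receptor. Its only probe set, 160241_at, read 39.5, 45.7 and 48.0. All arrays were above the floor and all were below the tissue-foreign threshold. Adam17 stood in the middle of its arrays, at percentile 50.3 ± 3.6, and 0.37 ± 0.080 log2 units above the floor (limma, adjusted p = 0.0039). This call was lost with the floor at the 50th percentile (difference 0.01, limma, adjusted p = 0.94).

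**Figure D2:**
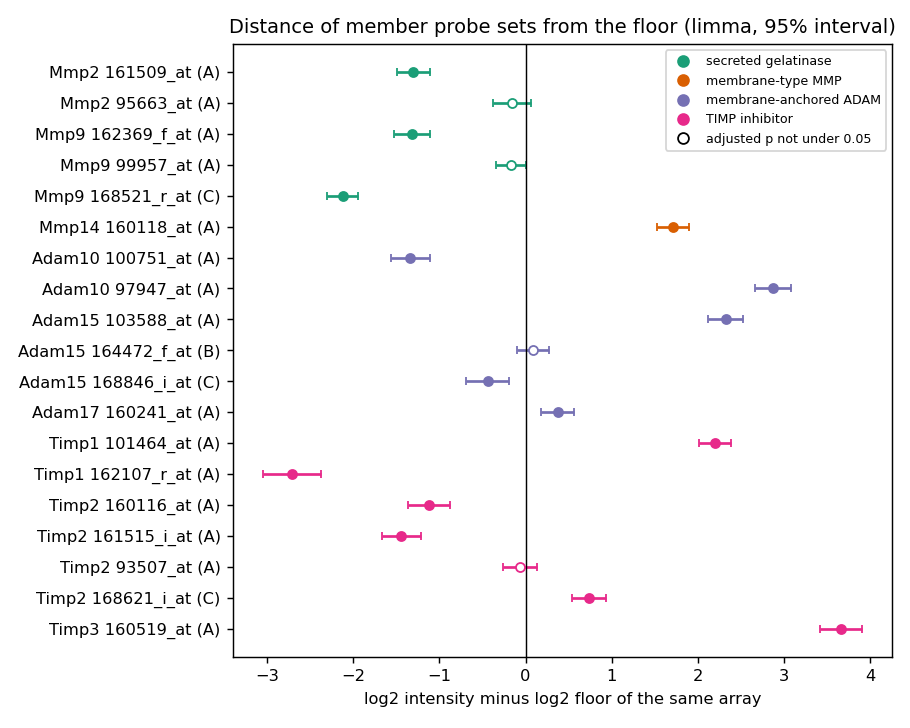
Mean log2 intensity minus the log2 floor of the same array for each of the 19 probe sets, with the 95% interval from limma (n = 3 arrays); filled points passed the adjusted test. Timp3 and the high probe set of Adam10 lie farthest to the right, at 3.66 and 2.87 log2 units, and the r-marked probe set of Timp1 farthest to the left, at -2.71.

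TIMP3 blocks metalloproteinases and several ADAM proteases, ADAM17 among them, and also binds the VEGF receptor KDR. Timp3 had the highest position of all 19 member probe sets. Its single probe set, 160519_at, read 494.2, 438.8 and 372.8, at percentile 94.5 ± 0.62 (SD, n = 3). Every array exceeded both reference levels, and the distance from the floor was 3.66 ± 0.10 log2 units, 12.6-fold (limma, adjusted p = 2.2e-07).

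TIMP1 inhibits most secreted metalloproteinases and forms a complex with the MMP9 precursor. Timp1 read 150.4, 169.4 and 151.4 on probe set 101464_at, above both levels on all arrays. This is percentile 83.7 ± 0.89 and 2.20 ± 0.077 log2 units above the floor, 4.59-fold (limma, adjusted p = 5.2e-07). Probe set 162107_r_at read 3.85, 5.71 and 6.55, the lowest position of any member, at percentile 1.91 ± 0.86 (limma difference -2.71 ± 0.14, adjusted p = 2.9e-06). The sets of Timp1 thus stood 81.8 percentile points apart.

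TIMP2 both inhibits MMP2 and helps MMP14 to activate its precursor. Timp2 had 4 probe sets, which lay on both sides of the floor. On design A, 93507_at read 35.3, 32.5 and 30.8, straddling the floor (limma difference -0.06 ± 0.081, adjusted p = 0.50). On the same design 160116_at read 15.7, 13.4 and 18.6, and 161515_i_at read 12.3, 14.4 and 11.3, both lower (limma, adjusted p = 4.6e-05 and 8.5e-06). On design C, 168621_i_at read 38.6, 43.8 and 44.8, above the floor by 0.74 ± 0.079 log2 units (limma, adjusted p = 0.00021). No Timp2 probe set on design A exceeded the tissue-foreign threshold on any array.

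Ordered by percentile, the leading member probe sets were those of Timp3, Adam10 (97947_at), Adam15 (103588_at), Timp1 (101464_at) and Mmp14. Among these neighbours, the ranges over the 3 arrays overlapped for Adam15 and Timp1 and for no other adjacent pair. Farther down, the ranges of Adam15 (164472_f_at), Timp2 (93507_at), Mmp2 (95663_at) and Mmp9 (99957_at) overlapped from each to the next. So did those of the low probe sets of Timp2 (160116_at), Mmp2, Mmp9 (162369_f_at), Adam10 and Timp2 (161515_i_at). The median log2 SD over replicates was 0.15 for the members and 0.13 for all probe sets. No member probe set ranged over more than 1 log2 unit across its arrays, beside 1.76% of all probe sets (1.88% on design A), and the widest range was 0.77 for the r-marked set of Timp1. The log2 SD was above the median of its design for 10 of 19 members. Replicate 3 gave the highest reading for 10 of 19, replicate 1 for 5 and replicate 2 for 4. These counts pool the separate arrays of 3 designs, and the same share over all probe sets was not computed. The floor was itself highest on replicate 3 of designs A, B and C, at 34.9, 35.1 and 25.4, on C by a very small margin. Whether this bears on the counts was not tested.

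Probe sets of the same gene disagreed for other genes too. On design A, 2073 genes had more than 1 probe set, and the median distance between their highest and lowest percentile was 29.9 points. Adam10, at 79.1 points, and Timp1, at 81.8, were in the wide tail, where 110 and 89 of these genes (5.31% and 4.29%) differed at least as much. Among the 817 genes with more than 1 plain probe set, 26 (3.18%) differed at least as much as Adam10. Mmp2 (24.8), Mmp9 (24.5) and Timp2 (29.0) lay near the median. Probe sets called on opposite sides of the floor occurred in 804 of the 2073 genes (38.8%). Of the 7 member probe sets with an i, r or f mark, 1 was called higher and 5 lower. The shares were 48.1% and 42.2% over all probe sets that are not plain, which also take in other marks such as s. Of the 12 plain ones 6 were higher and 3 lower, beside 55.9% and 31.3% of all plain probe sets.

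**Figure D3:**
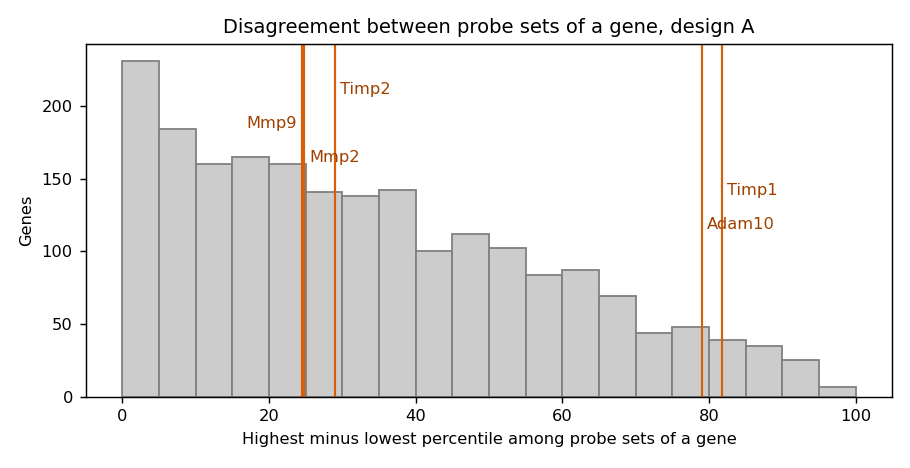
Histogram, for the 2073 genes with more than 1 probe set on design A, of the highest minus the lowest mean percentile among the probe sets of a gene, with vertical lines at the members. Mmp9, Mmp2 and Timp2 lie between 24.5 and 29.0 points, and Adam10 and Timp1 at 79.1 and 81.8.

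A pair of the inhibitor genes, but not Timp2, share a genomic feature that the choice of members did not use. In the RefSeq annotation of GRCm38.p6, Timp1 and Timp3 lie wholly within the synapsin genes Syn1 and Syn3, which encode synaptic vesicle proteins of neurons, as Timp4 lies within Syn2. The Syn3 probe set (111930_at, design B) read 4.39, 5.96 and 4.61, at percentile 1.11 ± 0.63, so the high reading of Timp3 stood beside a low one of its host gene. The Syn1 probe set (137221_f_at, design C) read 78.2, 99.0 and 69.7, at percentile 80.3 ± 4.6, with a name that marks shared probes. Cep295nl, which overlaps Timp2, stood at 23.8 ± 0.93 (92455_at, design A), and Iah1, which overlaps Adam17, at 77.7 ± 1.8 (167919_at, design C). Whether readings of overlapping genes contributed to one another was not tested.

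Other proteases of these families stood mostly low. The counts of this and the next paragraphs stand beside 54% of all probe sets called higher than the floor and 34% called lower. In the lists that follow, counts are over all probe sets, whereas genes were placed by the mean percentile of their probe sets on the first of designs A, B and C that held them, so that single probe sets can lie beyond the genes named. Of the 16 probe sets for 14 other matrix metalloproteinases, 3 were called higher than the floor and 9 lower (limma). The highest gene so placed, Mmp23, read 53.0, 56.9 and 58.9 on design B, at percentile 59.6 ± 1.9. The epithelial matrilysin Mmp7 (45.5 ± 2.8) and Mmp24 (45.4 ± 9.7), a membrane-type enzyme known from brain, followed, and Mmp27 was lowest at 4.60 ± 1.4. A single probe set of the macrophage elastase Mmp12 (95338_s_at, design A) stood above these, at 56.6 ± 0.73. None of the 11 on design A exceeded the tissue-foreign threshold on all arrays. Mmp14 was thus the only matrix metalloproteinase of those measured on design A to exceed it.

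The 25 probe sets of 17 other ADAM genes gave 8 higher and 14 lower. By gene mean on the first design, Adam28, known from lymphocytes, was placed highest at 77.0 ± 1.1 on a set marked r. Adam11 (55.2 ± 4.4) and Adam19 (51.4 ± 2.8) followed, and Adam4 was lowest at 5.20 ± 0.86. Single probe sets reached higher, with Adam5 at 84.8 ± 3.4 (162388_r_at, design A) and Adam11 at 83.2 ± 0.84 (116554_at, design B), and lower, with Adam2 at 0.43 ± 0.14 (162062_r_at, design A). The secreted ADAMTS proteases gave 9 higher and 5 lower of 16 probe sets. Adamts4, an aggrecanase, read 489.5, 407.8 and 469.4 on design B, at percentile 97.5 ± 0.21, and Adamts12 and Adamts10 stood at 86.9 ± 0.42 and 81.7 ± 2.7. Adamts1, the only one on design A, had an r-marked set at 0.97 ± 0.52.

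Partners and regulators of the members stood higher as a list, with 32 of 42 probe sets called higher and 8 lower and a median percentile of 66.6. Rhbdf1, which encodes iRhom1, a carrier that ADAM17 needs to leave the endoplasmic reticulum, read 495.5, 467.6 and 412.6 on design C, at 98.0 ± 0.32. Tspan14, a tetraspanin partner of ADAM10, stood at 92.0 ± 3.0 on design B, and Cst3, which encodes the cysteine protease inhibitor cystatin C, at 91.8 ± 0.26. Timp4, the remaining TIMP, was the lowest gene by this placing, with 10.5, 7.08 and 10.4 on design C and percentile 10.2 ± 3.4. The extreme single probe sets were those of Tspan5, another tetraspanin partner of ADAM10, at 99.2 ± 0.31 (163391_at, design B) and of Cd44, a hyaluronan receptor, at 0.78 ± 0.60 (103003_i_at, design A). Chosen after their values were seen, the activating convertase Furin stood at 90.5 ± 0.65, the metalloproteinase inducer Bsg at 86.2 ± 0.96 and the membrane-anchored inhibitor Reck at 81.3 ± 1.9, each on a single probe set of design A.

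The plasminogen system, the other main route of pericellular proteolysis, gave 9 higher and 7 lower of 19 probe sets. Anxa2, a cell-surface docking protein of plasminogen and its activator, stood at 98.3 ± 0.13, the tissue plasminogen activator gene Plat at 91.5 ± 0.70 and the urokinase receptor gene Plaur at 69.9 ± 1.3, all on design A. Serpinb2, an inhibitor of plasminogen activators, was lowest at 6.68 ± 1.7.

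Known substrates of the members stood high, beside 54% of all probe sets called higher than the floor and 34% called lower. Matrix substrates gave 16 higher and 2 lower of 21 probe sets, led by the type IV collagen chain Col4a1, which read 3510, 3393 and 3108 (percentile 99.9 ± 0.026), Col4a2 (99.4 ± 0.11) and Sparc (98.3 ± 0.25). Vitronectin, Vtn, was the lowest gene by its mean on design A, at 34.7 ± 8.2, and the lowest single probe set was one of nidogen-2, Nid2, at 28.0 ± 8.4 (165288_f_at, design B). Membrane substrates of ADAM10 and ADAM17 gave 40 higher and 9 lower of 54 probe sets, and each of the 23 genes measured had at least 1 set called higher. The share of all genes with at least 1 set called higher was not computed. Genes with several probe sets have more chances of such a call, so the count of genes alone does not place them high. App stood at 99.8 ± 0.020, Kdr at 99.3 ± 0.27 and VE-cadherin, Cdh5, at 98.8 ± 0.49, and Tgfa, a ligand released by ADAM17, at 6.25 ± 0.56, all on design A. Kdr and Cdh5 are also in the endothelial list below and Vtn in the mural list, so their readings count in both lists. Tgfa stood at 59.3 ± 7.0 on design C, where it was called higher (167516_at), and the lowest single probe set of this list was the one of Cd44 named above. Beside these lists, 19 of 57 tissue-foreign probe sets (33.3%) were also called higher than the floor, close to the 36.8% of the members.

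**Figure D4:**
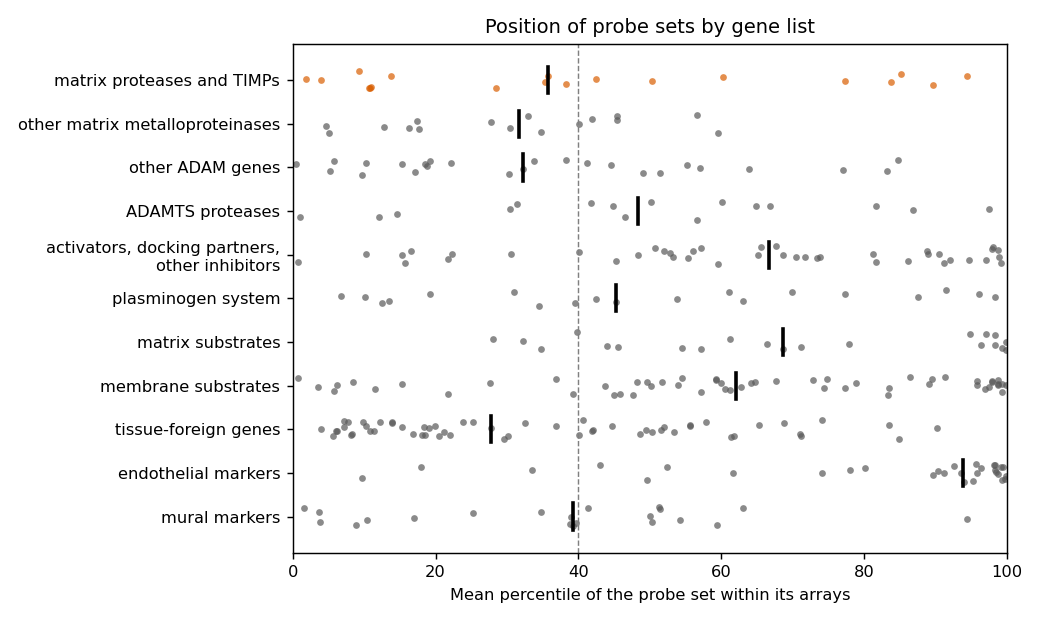
Mean percentile within its arrays of every probe set of the members, of each other list and of the endothelial and mural markers; short vertical bars are medians and the dashed line is the floor at percentile 40. The members spread from 1.91 to 94.5 with a median of 35.8, while the lists of partners and substrates have medians between 62.0 and 68.6.

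The labelled cell type was checked against its markers. Of 30 endothelial probe sets 26 were called higher than the floor, and 17 of 20 on design A exceeded the tissue-foreign threshold, led by Eng (percentile 99.7 ± 0.065), Kdr and Cldn5 (99.2 ± 0.33), while Egfl7 was the lowest gene, at 30.5 ± 4.6 on design C as the mean of probe sets at 17.9 and 43.0. The lowest single endothelial probe set was one of Sox18 at 9.72 ± 3.6 (166044_r_at, design C). Mural markers gave 8 higher and 7 lower of 21, with Mcam, which endothelium also makes, at 94.4 ± 0.54 and the only one of 14 on design A above that threshold, then Kcnj8 (59.5 ± 7.7) and Tagln (54.2 ± 3.7), and Abcc9 lowest at 3.63 ± 0.41 on design A. Abcc9 also had probe sets at 50.0 ± 1.5, called higher, and 3.77 ± 0.45 on design B, and the pericyte gene Rgs5 had, among its probe sets, readings at 1.57 ± 0.71 on design B and 63.1 ± 3.5 on design A. Markers of fibroblasts, cells well known for Mmp2, gave 4 higher and 9 lower of 14, and those of macrophages and microglia, a known source of Mmp9, 7 higher and 10 lower of 22. Summed intensities on design A were 12351 to 14250 for endothelial markers and 1730 to 2628 for neuronal and photoreceptor ones. Of the latter, 5 of 16 probe sets on design A exceeded the tissue-foreign threshold, near the 32% of all probe sets of that design. This share also stands beside the endothelial and mural counts above. The same count was 2 of 13 for fibroblast, 1 of 19 for macrophage and microglial and 1 of 12 for Muller glia and astrocyte markers. It was 2 of 9 for pigment epithelium and lens markers and 0 of 9 for granulocyte and lymphocyte markers. Sums were 825 to 919 for mural, 620 to 820 for macrophage and microglial and 597 to 770 for pigment epithelium and lens markers. Fibroblast markers gave 409 to 469, Muller glia and astrocyte markers 419 to 466 and granulocyte and lymphocyte markers 291 to 323. The lists differ in size and the sums were not scaled for it. Granulocyte and lymphocyte markers gave 2 higher and 5 lower of 11, and Muller glia and astrocyte markers 5 higher and 10 lower of 18. Neuronal and photoreceptor markers gave 12 higher and 11 lower of 26, and pigment epithelium and lens markers 8 higher and 7 lower of 15. Beside these marker counts, 54% of all probe sets were called higher and 34% lower. No marker was at 0 on any array. How far other cells contributed to the readings of the members was not tested, and in bulk RNA fewer cells of a type and less RNA per cell cannot be told apart.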

How the data were processed

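The 3 deposited tables, 1 for each design, hold a linear intensity for every probe set on every array. How these intensities were summarised and scaled by the authors is unknown here, and the scaling was left as deposited. Exactly 7 values were 0, none of a member, and were set to the smallest positive value of the array. Replicate arrays correlated with r between 0.981 and 0.987 (log2). The platform annotation gave 29131 of 36701 probe sets a single gene symbol, 724 more than 1 and 6846 none. Genome coordinates of the probes were not used here.

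Each design was fitted separately with limma 3.58.1 in R 4.3.3 (intercept alone, lmFit and eBayes) on log2 intensity minus the log2 floor, two-sided, threshold 0.05, tested on simulated data. The number of arrays limits the precision. Alternatives were quantile normalization, an offset of 50, each replicate left out, the lowest 20% of probe sets left out, a floor at the 50th percentile and the tissue-foreign threshold as reference. Members and lists were chosen with earlier results of these data known. From each pathway list, and from the endothelial and mural markers, the genes named were the top 3 and the bottom 1 by mean percentile, on the first of designs A, B and C that held the gene. Outside this rule, some extreme single probe sets and readings on other designs were named. Furin, Bsg and Reck were chosen after their values were seen. Likeness of pattern was not computed, since all arrays are replicates of 1 condition.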

Additional observations from a re-analysis of the deposited data

How the results depend on the processing

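The count of member probe sets called higher than the floor was 7 under quantile normalization, the offset, the removal of the lowest 20% and without any 1 replicate, 6 with the floor at the 50th percentile and 5 against the tissue-foreign threshold. The count called lower, 8, was the same without any 1 replicate, 12 with the higher floor, 13 against the tissue-foreign threshold and 1 without the lowest 20% of probe sets, which removed the other 7 from the test. Against the tissue-foreign threshold Adam17 (-0.62 log2 units) and Timp2 168621_i_at (-1.25) turned negative, the latter on design C, where that level rests on 12 probe sets, and with the floor at the 50th percentile Adam15 164472_f_at did (-0.26). Every other member probe set kept its direction under these alternatives. Leaving out replicate 3 raised the count above the tissue-foreign threshold from 5 to 6, through Adam15 on design B, where that level rests on 3 probe sets. No paired analysis was possible because the designs hold different probe sets of 1 condition and no groups were compared.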
